A study of Mus musculus with 18 samples.

Results

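Histone and linker histone genes were followed in mouse oocytes that carried transgenes of Zfy1 or Zfy2, Y-chromosomal genes for zinc finger transcription factors. The members were all bead probes whose annotated gene symbol began with Hist, H1f, H2ac, H2az, H2af, H2bc, H2bf, H3c, H3f or H4c, leaving out H2ax and symbols beginning H2-. This rule chose 95 of the 45281 probes on the array and 64 of its 19057 named genes. All 95 annotated symbols were also the current RefSeq symbols. By family, 77 probes of 49 genes were classed as replication-dependent core histones, which took in every member placed in no other class. The X-linked H2bfm was among these. A further 8 probes of 6 genes were somatic linker histones, 5 probes of 4 genes replacement variants and 4 probes of 4 genes germ-cell copies. The last probe was that of the oocyte linker histone H1f8, formerly H1foo.

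The series compared 6 genotypes of fully grown germinal-vesicle oocytes, which rest in meiotic prophase, with 3 biological replicates each. Every array held RNA of a pool of about 100 oocytes from at least 2 females. The females were 4 weeks old, of the MF1 outbred albino strain, and had received PMSG, a gonadotrophin that makes follicles grow, 45 to 48 hours earlier. Cumulus cells were stripped off before freezing. Zfy2+Eif2s3y females carried a single-copy Zfy2 transgene and a multiple-copy transgene of Eif2s3y, a Y-chromosomal translation factor gene. The submitters called this group contaminated, with the second transgene in some of the cells only. Zfy2 females carried the single-copy Zfy2 transgene alone, Zfy1-hi females a high-copy Zfy1 transgene and Zfy1-lo females a single-copy Zfy1 transgene. Zfy2-nf females carried a Zfy2 transgene that is not functional, and XX females carried none. The promoter that drives each transgene is not given in the sources used here. Zfy2 and Zfy1-hi formed batch 2, on 1 slide, and the other 4 genotypes batch 1, on 2 slides.

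Core histones H2A, H2B, H3 and H4 form the nucleosome, and a linker histone H1 binds the DNA where it enters and leaves. Most core histone genes lie in clusters, are transcribed when DNA replicates, and give mRNAs that end in a stem-loop bound by the protein Slbp instead of a poly(A) tail. Variant genes such as H2az1, H3f3a and H3f3b give polyadenylated mRNAs and proteins that enter chromatin outside replication. A fully grown mouse oocyte no longer replicates its DNA, but stores histone mRNAs and proteins for the embryo, and its own linker histone H1f8 takes the place of the somatic H1 proteins. H2ac1 and H2bc1, known as TH2A and TH2B, are H2A and H2B copies of the male germ line that mouse oocytes also make.

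Promoter windows of 250 bases before to 50 bases after the start were found in RefSeq (GRCm38.p6) for 59 of the 64 genes. Of these, 44 lay on chromosome 13, 8 on chromosome 3, 2 each on chromosomes 6 and 11, and 1 each on chromosomes 1, 15 and X. In 6 pairs an H2A and an H2B gene faced each other head to head with overlapping windows, H2ac1 with H2bc1 among them. The 4 windows below are shown because H2ac1 and H1f1 were among the genes with called differences, H2bc1 shares a promoter region with H2ac1, and H1f8 is the oocyte's own linker histone. Capitals mark matches on either strand to the TATA box TATAAA, to the CCAAT box and to the octamer ATTTGCAT. In H1f8 they also mark the palindrome AGGCCT. The H2ac1 window is chr13:23934187-23934486, plus strand. The H2bc1 window is chr13:23934107-23934406, minus strand. The H1f1 window is chr13:23763418-23763717, plus strand, and the H1f8 window is chr6:115944681-115944980, plus strand.
H2ac1: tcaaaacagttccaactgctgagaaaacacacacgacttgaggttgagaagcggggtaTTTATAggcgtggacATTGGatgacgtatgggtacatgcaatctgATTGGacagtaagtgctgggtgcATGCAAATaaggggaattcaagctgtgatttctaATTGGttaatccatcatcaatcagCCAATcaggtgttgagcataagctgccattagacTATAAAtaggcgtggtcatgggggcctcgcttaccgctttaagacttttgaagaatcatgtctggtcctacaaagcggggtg
H2bc1: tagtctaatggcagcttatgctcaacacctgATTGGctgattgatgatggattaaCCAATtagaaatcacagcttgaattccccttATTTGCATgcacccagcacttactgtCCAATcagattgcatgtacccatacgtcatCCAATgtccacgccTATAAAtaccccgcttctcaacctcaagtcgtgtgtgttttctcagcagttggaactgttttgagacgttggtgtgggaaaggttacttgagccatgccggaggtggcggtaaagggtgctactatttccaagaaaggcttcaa
H1f1: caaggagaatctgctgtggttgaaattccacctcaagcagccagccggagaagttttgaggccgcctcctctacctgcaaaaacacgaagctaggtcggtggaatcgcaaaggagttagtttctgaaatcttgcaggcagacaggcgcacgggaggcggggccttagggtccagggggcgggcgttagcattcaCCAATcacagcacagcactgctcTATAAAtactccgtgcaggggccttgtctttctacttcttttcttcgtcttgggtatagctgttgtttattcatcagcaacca
H1f8: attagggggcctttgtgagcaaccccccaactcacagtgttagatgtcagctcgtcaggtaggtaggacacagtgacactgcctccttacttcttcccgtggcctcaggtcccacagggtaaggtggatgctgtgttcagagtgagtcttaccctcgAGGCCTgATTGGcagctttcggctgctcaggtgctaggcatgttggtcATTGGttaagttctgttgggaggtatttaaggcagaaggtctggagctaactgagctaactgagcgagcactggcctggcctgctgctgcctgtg

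The H2ac1 and H2bc1 windows shared 220 bases, and their starts lay 281 bases apart on opposite strands. H2ac1 had a TATAAA match beginning 32 bases before its start, and the octamer lay on the other strand 124 bases before it. The same octamer read on the H2bc1 strand 164 bases before that gene's start. H1f1 had TATAAA 33 bases and CCAAT 56 bases before its start. The H1f8 window held CCAAT at 86 and 45 bases before the start on the other strand and no TATAAA. The windows of H2ac19, H3c8 and H2ac10, which also carried called differences, are not shown. They held 2, 3 and 2 CCAAT matches and no TATAAA. No window was found for the called gene H2bc4.

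On either strand, TATAAA was present in 53.3% of the 60 histone windows and in 13.6% of all 32851 windows of the table. CCAAT was present in 83.3% of the histone windows, against 37.4% of all windows. It was found in every one of the 15 H2A, 11 H2B and 7 H3 windows, but in only 3 of the 11 H4 windows. The octamer stood in 6 of 11 H2B windows and 5 of 15 H2A windows, in 0 of the H3 and 0 of the H4 windows, and in 1.74% of all windows. AGGCCT was searched because the human ZFX and ZFY proteins are known to bind it, and it was present in 6 of the 60 histone windows and in 10.3% of all windows. These matches describe letters in a window and are not evidence of binding.

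Each array detected 18140 to 20292 probes, at a detection p-value under 0.05. The lowest correlation between replicates was 0.967. Oocyte identity genes were detected as labelled, all 16 of them on at least 16 arrays. Of these, Kit and Figla were called lower in Zfy2+Eif2s3y than in Zfy2-nf and XX. That was 3 of the list's 21 probes, or 14.3%, against 9.14% of all kept probes. Kit was called lower in Zfy2 than in Zfy1-hi with 1 of its 3 probes, or 4.76% of the list, against 5.66% of all. The list medians were -0.02 and 0.03. Transgene probes followed the labels in part: the Zfy2 probe was detected on all arrays of Zfy2+Eif2s3y, Zfy2, Zfy1-hi and Zfy1-lo and on 0 of 3 Zfy2-nf and 0 of 3 XX arrays, so it did not tell Zfy2 from Zfy1. An Eif2s3y probe was detected on 3 of 3 Zfy2+Eif2s3y arrays and on no other array, while its other probe went against the labels, on 0 of those 3, on all 3 Zfy2 and all 3 Zfy1-hi arrays and on 2 of 3 Zfy2-nf arrays. A Zfy1 probe was detected on 3 of 3 Zfy1-hi and 3 of 3 Zfy1-lo arrays, on 1 of 3 Zfy2+Eif2s3y arrays and on no other, and a further Zfy1 probe on all 18 arrays.

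Of the 95 histone probes, 79 were detected on at least 3 of the 18 arrays and were tested, and they covered 57 of the 64 genes. Among the tested probes, 56 were detected on all arrays. Of the 16 left out, 9 were detected on no array and 7 on 1 or 2. The kept probes numbered 20 of 22 for H2A, 16 of 18 for H2B, 12 of 18 for H3 and 17 of 19 for H4. H2bfm counted among the 18 H2B probes, but not among the 11 H2B windows above. The testis linker genes H1f6 and H1f7 were each detected on 1 array, and the somatic linker H1f3 and the X-linked H2bfm on 0. Just below the threshold, H3c8 and H4c8 each had a probe on 2 arrays. Just inside it, with 3 arrays each, were probes of H2ac6, H2bc21, H3c4, H4c14, H4c8 and H1f10. Over the 79 tested probes, the range of the 6 genotype means had a median of 0.52 on the log2 scale, against 0.56 for all 23951 kept probes of the array.

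Levels below are log2 intensities after background correction and quantile normalization, and differences are on the same log2 scale. They compare genotypes within a probe, since probes differ in how brightly they bind. A probe was called where the p-value of the limma fit, adjusted by Benjamini-Hochberg over all 23951 kept probes, was under 0.05. Where 3 arrays are set against 3, the smallest p of an exact two-sided test is 0.1, so calls there rest on the spread that limma shares over genotypes and probes. The comparison with both Zfy2-nf and XX has more control arrays and uses the same shared spread. In pools of oocytes, fewer cells with a transcript and less transcript per cell cannot be told apart. Near-identical cluster genes may also share a probe's signal. Probe sequences are not used here.

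Zfy2+Eif2s3y oocytes, set against the mean of Zfy2-nf and XX, asked what a Zfy2 transgene changes within batch 1. Neither control carries the Eif2s3y transgene, so effects of Zfy2 and Eif2s3y cannot be told apart in this comparison. The called histone probes were the H2A copy H2ac19, the germ-cell H2A copy H2ac1 and the H2B copy H2bc4, all higher in Zfy2+Eif2s3y. That is 3 of 79, where 9.14% of all kept probes were called in this comparison, 4.19% of them higher and 4.95% lower. At an unadjusted p under 0.05 there were 13 histone probes, or 16.5%, against 24.0% of all probes. The groups did not overlap for 9 of the 79 probes, against 13.2% of all probes. The share of histone probes called was thus not above that of the array.

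H2ac19, an H2A gene of the chromosome 3 cluster, read 7.52, 7.16 and 7.71 on the Zfy2+Eif2s3y arrays, 6.81, 6.93 and 6.55 on the Zfy2-nf arrays, and 6.66, 5.85 and 6.45 on the XX arrays. Every Zfy2+Eif2s3y array lay above every control array. The difference was 0.92 (SE 0.22, 95% interval 0.45 to 1.40), or 1.89-fold higher, with an adjusted p of 0.0161 in limma. Probes of the near-identical neighbour H2ac18 differed by 0.36 and 0.13 and were not called (adjusted p 0.250 and 0.830 in limma). The H2ac19 call was lost without Zfy2+Eif2s3y replicate 1 (difference 0.89, adjusted p 0.0676) and without replicate 3 (0.80, adjusted p 0.0859). With slide as a block the difference was 0.90 (adjusted p 0.0845), and within slide 2, which held all Zfy2+Eif2s3y arrays but only 1 array of each control, it was 0.86 (adjusted p 0.112).

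H2bc4 read 9.08, 9.08 and 9.04 in Zfy2+Eif2s3y, 9.02, 8.77 and 8.77 in Zfy2-nf, and 8.44, 8.66 and 8.40 in XX. The Zfy2+Eif2s3y arrays lay close together and just above the highest Zfy2-nf array. The difference was 0.39 (SE 0.11, 95% interval 0.17 to 0.62), or 1.31-fold higher, with an adjusted p of 0.0299 in limma. A further H2bc4 probe read 10.17, 10.02 and 10.04 in Zfy2+Eif2s3y, 10.14, 9.84 and 10.01 in Zfy2-nf, and 9.76, 9.9996 and 9.90 in XX. There the groups overlapped and the difference of 0.13 was not called (adjusted p 0.546 in limma). The H2bc4 call was also lost when any of the 3 Zfy2+Eif2s3y arrays (adjusted p 0.0767 to 0.102), Zfy2-nf replicate 2 (0.0584) or XX replicate 3 (0.0591) was left out. It was 0.42 with slide as a block (adjusted p 0.0817) and 0.46 within slide 2 (adjusted p 0.174).

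The remaining core histone probes showed small differences in this comparison. Of the 79 histone probes, 61 were above 0 and 18 below, with a median of 0.15, against -0.01 over all kept probes. H2A probes had a median of 0.17 with 18 of 20 above 0, and H2B probes a median of 0.26 with 15 of 16 above 0. H4 probes had a median of 0.11 with 14 of 17 above 0, while H3 probes had a median of -0.03 with 5 of 12 above 0. The H4 sign turned without Zfy2+Eif2s3y replicate 3, to -0.01 with 8 of 17 above 0, and the median was 0.04 with 10 of 17 above 0 without Zfy2-nf replicate 3. The H3 sign turned without Zfy2+Eif2s3y replicate 1, to 0.01 with 6 of 12 above 0. None of the 12 H3 and none of the 17 H4 probes was called by limma, and 1 of each had an unadjusted p under 0.05. The signs of the 4 family medians were kept under the other 3 ways of scaling the arrays, and those of H2A and H2B also without any 1 array.

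**Figure D1:**
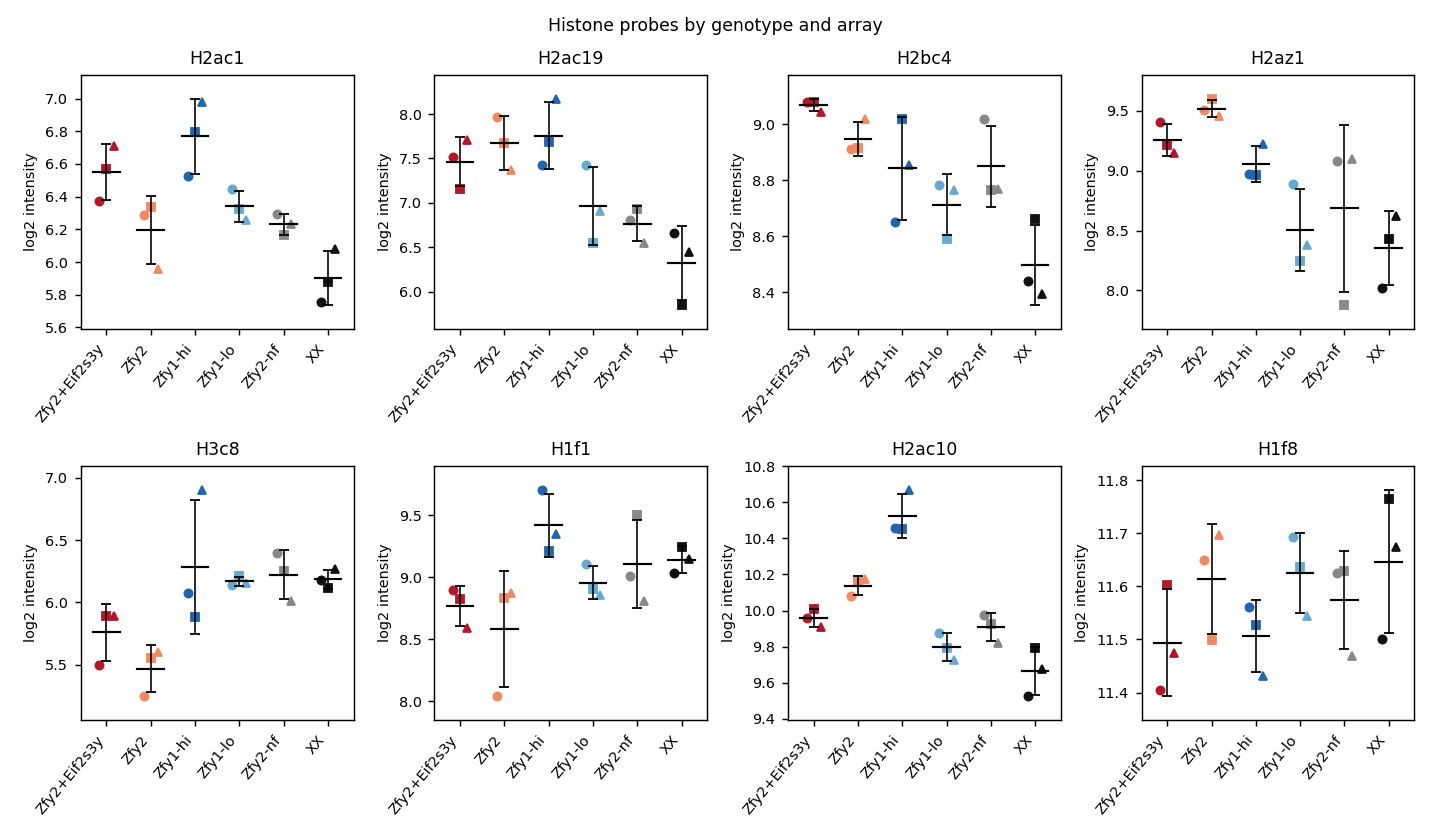
Log2 intensity of 8 histone probes on each of the 18 arrays (vertical axis), by genotype from Zfy2+Eif2s3y at the left to XX at the right. Circles, squares and triangles are replicates 1, 2 and 3, the bar is the mean and the whisker the SD of 3 arrays. H2ac1, H2ac19 and H2bc4 lay higher in Zfy2+Eif2s3y than in Zfy2-nf and XX, while H1f8 stayed between 11.41 and 11.76 on all arrays.

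Zfy2 oocytes, set against Zfy1-hi on the same slide, asked how a Zfy2 transgene differs from many copies of Zfy1. Here H3c8, H2ac1, the somatic linker histone H1f1 and the H2A copy H2ac10 were lower in Zfy2, and no histone probe was called higher. That is 4 of 79 called, against 5.66% of all kept probes, of which 2.42% were higher and 3.24% lower. At an unadjusted p under 0.05 there were 16 histone probes, or 20.3%, against 18.5% of all probes. Groups did not overlap for 17 of 79, against 25.7% of all probes. On this slide all Zfy2 arrays held the upper positions and all Zfy1-hi arrays the lower ones, so position and genotype cannot be told apart within it. With upper against lower position added to the fit and estimated from the batch 1 slides, none of the 4 calls remained: H3c8 differed by -0.67 (adjusted p 0.245), H1f1 by -0.79 (0.187), H2ac1 by -0.51 (0.216) and H2ac10 by -0.41 (0.183). Fitted on the 6 arrays of these groups alone, the 4 differences had adjusted p-values of 0.111 to 0.142.

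H3c8, a replication-dependent H3 gene, read 5.25, 5.56 and 5.60 in Zfy2 and 6.07, 5.89 and 6.90 in Zfy1-hi. The groups did not overlap, and Zfy1-hi replicate 3 stood far above the other arrays. The difference was -0.82 (SE 0.21, 95% interval -1.25 to -0.38), or 1.76-fold lower in Zfy2, with an adjusted p of 0.0287 in limma. Without Zfy1-hi replicate 3 it was -0.51 (adjusted p 0.105), and the call was also lost without Zfy2 replicate 1 (-0.71, adjusted p 0.112) or replicate 2 (-0.86, adjusted p 0.0612). In batch 1 the probe read 5.76 ± 0.23 in Zfy2+Eif2s3y, 6.17 ± 0.04 in Zfy1-lo, 6.22 ± 0.20 in Zfy2-nf and 6.19 ± 0.08 in XX (SD, n = 3).

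H2ac10 read 10.08, 10.16 and 10.18 in Zfy2 and 10.46, 10.45 and 10.66 in Zfy1-hi, which was the highest of the 6 genotypes. The Zfy2 arrays lay close together below all Zfy1-hi arrays. The difference was -0.39 (SE 0.11, 95% interval -0.62 to -0.15), or 1.31-fold lower in Zfy2, with an adjusted p of 0.0489 in limma. Its call was lost without any 1 of the 6 arrays, with adjusted p-values of 0.0785 to 0.190. A further H2ac10 probe read 8.44, 8.72 and 8.80 in Zfy2 and 9.01, 8.80 and 9.10 in Zfy1-hi, a difference of -0.32 that was not called (adjusted p 0.240 in limma).

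By family, the median difference in Zfy2 against Zfy1-hi was -0.23 for H3 probes, 2 of 12 above 0, and -0.24 for H4 probes, 6 of 17 above 0. The H2A median was 0.04 and the H2B median -0.07. Over all 79 histone probes the median was -0.09, against 0.00 over all kept probes. Without Zfy1-hi replicate 3 the median was 0.00 over all histone probes, -0.10 for H3 with 2 of 12 above 0, -0.04 for H4 and 0.05 for H2B. The H2A median was 0.03 without that array, but -0.06 without Zfy1-hi replicate 1, -0.08 without Zfy1-hi replicate 2, and -0.0047 and -0.03 without Zfy2 replicates 1 and 2. The H4 median was -0.09 without Zfy2 replicate 1.

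**Figure D2:**
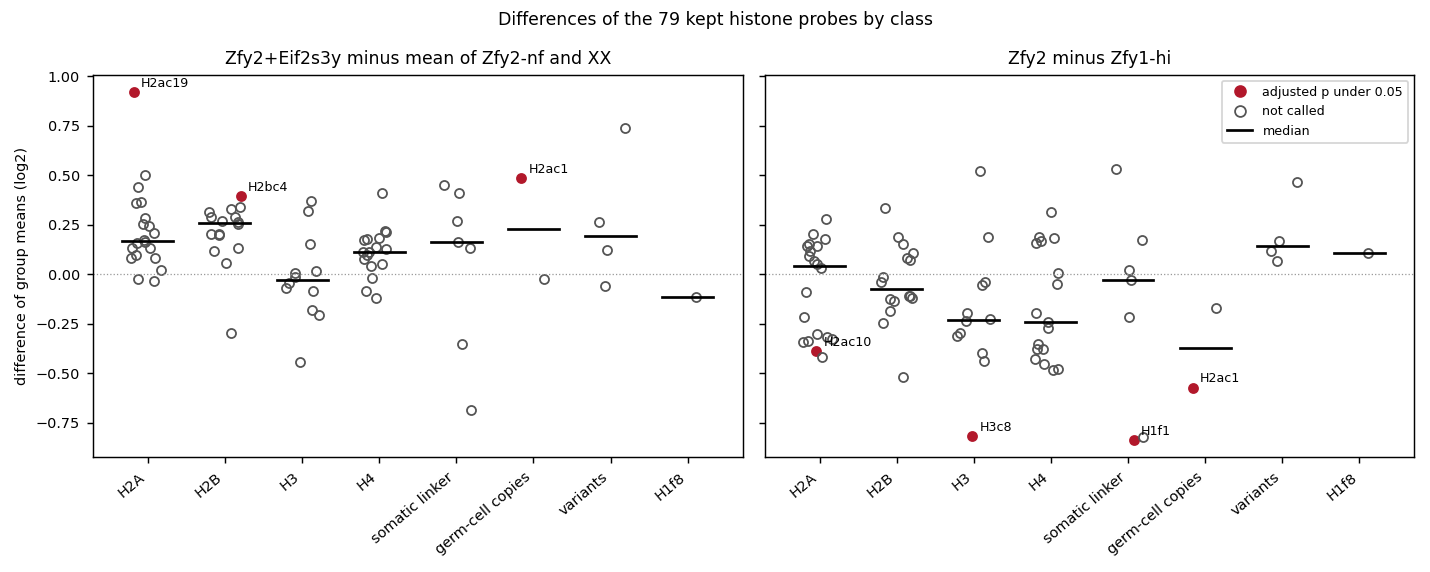
Log2 difference of each of the 79 tested histone probes (vertical axis) by family, for Zfy2+Eif2s3y minus the mean of Zfy2-nf and XX and for Zfy2 minus Zfy1-hi. Filled red points were called at an adjusted p under 0.05, and lines are family medians. The 3 called probes of the Zfy2+Eif2s3y comparison lay above 0 and the 4 of the Zfy2 comparison below 0.

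The germ-cell copy H2ac1 was called in both comparisons. It read 6.37, 6.57 and 6.71 in Zfy2+Eif2s3y, 6.45, 6.32 and 6.25 in Zfy1-lo, 6.29, 6.16 and 6.23 in Zfy2-nf, and 5.75, 5.88 and 6.08 in XX. In batch 2 it read 6.29, 6.34 and 5.96 in Zfy2 and 6.53, 6.79 and 6.98 in Zfy1-hi. Zfy2+Eif2s3y lay above both controls without overlap, XX had the lowest mean of the 6 genotypes, and Zfy1-hi lay above Zfy2 without overlap. Against the mean of Zfy2-nf and XX, Zfy2+Eif2s3y was higher by 0.48 (SE 0.13, 95% interval 0.22 to 0.75), or 1.40-fold, with an adjusted p of 0.0236 in limma. Zfy2 against Zfy1-hi differed by -0.57 (SE 0.15, 95% interval -0.88 to -0.26), or 1.49-fold lower in Zfy2, with an adjusted p of 0.0299.

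Both H2ac1 calls depended on single arrays. The batch 1 call was lost without Zfy2+Eif2s3y replicate 2 (difference 0.47, adjusted p 0.0881) or replicate 3 (0.40, adjusted p 0.120). With slide as a block that call held, and within slide 2 the difference was 0.56 and not called (adjusted p 0.169). The batch 2 call was lost without Zfy1-hi replicate 2 (-0.56, adjusted p 0.0830) or replicate 3 (-0.47, adjusted p 0.133), and without Zfy2 replicate 1 (-0.62, adjusted p 0.0509) or replicate 3 (-0.45, adjusted p 0.124). Its log2 difference from Zfy1-hi therefore ranged from -0.62 to -0.45 over these omissions.

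Its head-to-head neighbour H2bc1, encoding TH2B, was called in neither. H2bc1 averaged 7.28 ± 0.32 in Zfy2+Eif2s3y, 7.05 ± 0.20 in Zfy2-nf and 7.56 ± 0.41 in XX, and 7.18 ± 0.36 in Zfy2 and 7.35 ± 0.23 in Zfy1-hi (SD, n = 3). These groups overlapped. The differences were -0.02 (95% interval -0.49 to 0.44) and -0.17 (95% interval -0.70 to 0.37). The first interval ended just below the H2ac1 difference of 0.48, and the second held that of -0.57.

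H2ac1 was also the histone probe whose difference between the 2 comparisons came nearest to a call. The Zfy2+Eif2s3y difference minus the Zfy2 difference was 1.06 (95% interval 0.65 to 1.47, adjusted p 0.0600 in limma). No histone probe was called in this test, where 0.071% of all kept probes were (0.0626% higher and 0.00835% lower), and 9 had an unadjusted p under 0.05, against 6.57% of all probes. With 1 probe kept per gene, H2ac1 was called at 0.0425, and without Zfy1-hi replicate 1 at 0.0428. The next probe was H2ac10, at 0.56 (adjusted p 0.295 in limma). Genotype, comparator and batch all differ between these 2 comparisons.

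Among the somatic linker histones, H1f1 read 8.04, 8.83 and 8.88 in Zfy2 and 9.70, 9.21 and 9.35 in Zfy1-hi. Zfy2 replicate 1 was far below the other arrays, and the groups did not overlap. That array was low for all 3 somatic linker probes detected on all arrays, those of H1f1 and H1f2, whose mean lay 0.75 below the XX mean on it, while the other Zfy2 arrays lay 0.0018 and 0.23 above. The difference was -0.84 (SE 0.22, 95% interval -1.29 to -0.38), or 1.79-fold lower in Zfy2, with an adjusted p of 0.0310 in limma. It was -0.57 without Zfy2 replicate 1 (adjusted p 0.133), -0.70 without Zfy1-hi replicate 1 (adjusted p 0.132) and -0.87 without Zfy1-hi replicate 3 (adjusted p 0.0682). In batch 1, H1f1 averaged 8.77 ± 0.16 in Zfy2+Eif2s3y, 8.96 ± 0.13 in Zfy1-lo, 9.11 ± 0.36 in Zfy2-nf and 9.14 ± 0.11 in XX (SD, n = 3).

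H1f4 had its lowest means in Zfy2+Eif2s3y and Zfy2, both at low levels and without reaching a call. Its 1 probe was detected on 17 of 18 arrays, including 2 of 3 Zfy2+Eif2s3y arrays. It read 5.03, 5.28 and 4.81 in Zfy2+Eif2s3y, 5.67, 5.36 and 6.14 in Zfy2-nf, and 6.03, 5.68 and 5.45 in XX. In batch 2 it read 5.19, 4.84 and 5.07 in Zfy2 and 6.23, 6.12 and 5.20 in Zfy1-hi. The groups did not overlap in either comparison, though Zfy1-hi replicate 3 lay next to the Zfy2 arrays. The differences were -0.68 (95% interval -1.15 to -0.22, adjusted p 0.0619) and -0.82 (95% interval -1.35 to -0.28, adjusted p 0.0716). Without Zfy2-nf replicate 2 the first became -0.77 (adjusted p 0.0423), and without Zfy1-hi replicate 3 the second became -1.14 (adjusted p 0.0102), both called in limma. Over all alternatives the first ranged from -1.05 to -0.28 and the second from -1.14 to -0.35.

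The other somatic linker genes were not called. Both H1f2 probes were detected on all arrays, and 1 of them averaged 9.004 in Zfy2+Eif2s3y, 8.29 in Zfy2, 8.32 in Zfy1-hi, 8.82 in Zfy1-lo, 8.76 in Zfy2-nf and 8.44 in XX. The other H1f2 probe had genotype means of 7.59 to 7.76, but read 7.07, 8.08 and 8.14 on the Zfy2 arrays, and without Zfy2 replicate 1 its difference from Zfy1-hi was 0.52. H1f5 was detected on 16 arrays, with differences of 0.27 and -0.21 in the Zfy2+Eif2s3y and Zfy2 comparisons. The brighter probe of H1f10, a replication-independent linker histone, was detected on all 3 arrays of Zfy2+Eif2s3y, Zfy2, Zfy1-hi and Zfy2-nf, on 2 of 3 Zfy1-lo arrays and on 0 of 3 XX arrays. Its XX level is therefore only a bound, and no fold is given.

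The oocyte linker histone H1f8 had the narrowest range of genotype means among the 79 tested histone probes. It averaged 11.49 ± 0.10 in Zfy2+Eif2s3y, 11.61 ± 0.10 in Zfy2, 11.51 ± 0.07 in Zfy1-hi, 11.63 ± 0.07 in Zfy1-lo, 11.57 ± 0.09 in Zfy2-nf and 11.65 ± 0.13 in XX (SD, n = 3). All genotypes overlapped with XX. The genotype means spanned 0.15 log2 units, and the SD within genotypes was 0.10. Zfy2+Eif2s3y differed from the controls by -0.12 (95% interval -0.32 to 0.09, adjusted p 0.512 in limma), and Zfy2 from Zfy1-hi by 0.11 (95% interval -0.13 to 0.35, adjusted p 0.690). The probes most like H1f8 over the 6 genotype means belonged to Zc3h10 (r = 0.976), Abca6 (0.973) and Kcnq1ot1 (0.970). For H2ac1 they belonged to Psmd8 (1.00), Rusc2 (0.994) and Wars (0.988). With 6 points picked from 23951 probes, high values of r arise easily, and they are given as a description.

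The variant gene H2az1, encoding H2A.Z, read 9.41, 9.22 and 9.15 in Zfy2+Eif2s3y, 9.08, 7.88 and 9.10 in Zfy2-nf, and 8.02, 8.43 and 8.62 in XX. Zfy2-nf replicate 2 was far below its replicates, and Zfy2+Eif2s3y lay above all control arrays. The difference of 0.74 (95% interval 0.25 to 1.22) had an adjusted p of 0.0536 in limma and was not called. It passed without Zfy2-nf replicate 1 (0.84, adjusted p 0.0343), Zfy2-nf replicate 3 (0.84, adjusted p 0.0270) or XX replicate 3 (0.80, adjusted p 0.0499). It also passed under the other 3 ways of scaling the arrays (adjusted p 0.0312 to 0.0366), with position as a covariate (0.0165), among probes on all arrays (0.0387) and with 1 probe per gene (0.0480), in all 9 of 21 alternatives. H2az1 averaged 9.52 ± 0.07 in Zfy2 and 9.06 ± 0.15 in Zfy1-hi, a difference of 0.47 that was not called (adjusted p 0.378). In Zfy1-lo it averaged 8.51 ± 0.34 (SD, n = 3).

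H3f3a and H3f3b, which encode the same H3.3 protein, stayed near one level. H3f3a averaged 10.47 ± 0.10 in Zfy2+Eif2s3y, 10.62 ± 0.10 in Zfy2-nf and 10.44 ± 0.09 in XX, and its difference was -0.06 (95% interval -0.28 to 0.16). H3f3b averaged 11.25 ± 0.05 in Zfy2+Eif2s3y, 11.05 ± 0.06 in Zfy2-nf and 11.21 ± 0.16 in XX (SD, n = 3), and its difference was 0.12 (95% interval -0.08 to 0.32). Neither was called in Zfy2 against Zfy1-hi, with differences of 0.07 and 0.17. H2az2 was detected on 4 arrays only, 1 each in Zfy2+Eif2s3y, Zfy2, Zfy1-hi and Zfy1-lo and 0 in Zfy2-nf and XX. H2ax, which the rule leaves out, was called higher by 0.73 in Zfy2+Eif2s3y than in the controls (adjusted p 3.33e-04 in limma). It was also called higher by 0.53 in Zfy2 than in Zfy1-hi (adjusted p 0.0159). Against Zfy1-lo, Zfy2+Eif2s3y was higher by 0.46 (adjusted p 0.0361). H2ax was not called in Zfy2-nf (0.32, adjusted p 0.440) or Zfy1-lo (0.44, adjusted p 0.434) against XX. Macroh2a1 and Macroh2a2, which the rule also leaves out, were called in no contrast within a batch. In Zfy2+Eif2s3y against the controls they differed by 0.03 and -0.05 (Macroh2a1) and -0.14 (Macroh2a2). In Zfy2 against Zfy1-hi these differences were 0.04, 0.08 and 0.05.

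Zfy2+Eif2s3y was also set against Zfy1-lo, which carries 1 copy of Zfy1 in the same batch. These values share the Zfy2+Eif2s3y arrays with the comparison above. By limma, 0 of 79 histone probes were called, against 5.55% of all kept probes, 2.42% higher and 3.14% lower. At an unadjusted p under 0.05 there were 8, or 10.1%, against 20.0% of all probes. The median difference was 0.17, against -0.01 over all kept probes, with 62 probes above 0 and 17 below. The groups did not overlap for 16 of 79, against 24.7% of all probes. The smallest p-values belonged to H1f4 at -0.80 (adjusted p 0.0779), H2ac12 at 0.52 (0.105), H2ac18 at 0.62 (0.108) and 0.96 (0.109), and H2az1 at 0.75 (0.111).

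The brighter H2ac18 probe read 8.54, 8.43 and 8.19 in Zfy2+Eif2s3y and 7.78, 7.83 and 7.69 in Zfy1-lo. These groups did not overlap, and H2ac18 is a near-identical neighbour of H2ac19. H2ac12 read 6.24, 6.00 and 5.89 in Zfy2+Eif2s3y and 6.00, 5.36 and 5.22 in Zfy1-lo, where the groups overlapped. Zfy1-lo replicate 1 was the highest of its genotype, and without it the H2ac12 difference was 0.76 and called (adjusted p 0.0111 in limma).

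The non-functional Zfy2 transgene and the single-copy Zfy1 transgene were each set against XX. Zfy2-nf had 0 of 79 histone probes called by limma, against 0.0292% of all kept probes, and 8 at an unadjusted p under 0.05, against 8.78% of all probes. For 9 of 79 the groups did not overlap, against 12.1% of all probes. The smallest p-values were those of the H4 gene H4c2 at -0.57 (adjusted p 0.364), H2bc4 at 0.35 (0.412) and H2ac1 at 0.33 (0.541). Zfy1-lo also had 0 of 79 called, against 0.00418% of all kept probes, and 7 at an unadjusted p under 0.05, against 7.26% of all probes. For 10 of 79 they did not overlap, against 11.2% of all probes. Its smallest p-values included H2ac18 at -1.08 (adjusted p 0.515), H2ac1 at 0.44 (0.515) and H2ac19 at 0.64 (0.618). The histone medians were 0.05 for Zfy2-nf and 0.00 for Zfy1-lo. By family, the H2A median was 0.11 in each, with 14 of 20 probes above 0. The H2B medians were 0.12 for Zfy2-nf and 0.09 for Zfy1-lo, with 11 and 9 of 16 above 0. The H3 medians were -0.01 and -0.03, and the H4 medians -0.02 and -0.05. H2ac1 was thus above XX in the measured means of both genotypes, without a call.

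Mean levels of each family, over probes detected on all arrays, are given for all 6 genotypes with XX as the zero point. Batch and genotype cannot be told apart between Zfy2 or Zfy1-hi and the batch 1 genotypes. The 13 H2B probes averaged 0.26 ± 0.06 in Zfy2+Eif2s3y, 0.47 ± 0.03 in Zfy2, 0.57 ± 0.19 in Zfy1-hi, 0.08 ± 0.11 in Zfy1-lo and 0.08 ± 0.12 in Zfy2-nf (SD, n = 3). For 10 of the 13, both batch 2 means lay above every batch 1 mean, or 76.9% of them, against 19.5% of all probes on all arrays. The 8 H3 probes averaged -0.10 ± 0.07 in Zfy2+Eif2s3y, -0.34 ± 0.02 in Zfy2, 0.02 ± 0.28 in Zfy1-hi, -0.03 ± 0.11 in Zfy1-lo and -0.0033 ± 0.10 in Zfy2-nf. H2B was thus higher on the batch 2 slide, and H3 was not.

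The 13 H2A probes averaged 0.28 ± 0.05 in Zfy2+Eif2s3y, 0.25 ± 0.10 in Zfy2, 0.43 ± 0.14 in Zfy1-hi, 0.0018 ± 0.21 in Zfy1-lo and 0.08 ± 0.15 in Zfy2-nf. The 13 H4 probes averaged 0.11 ± 0.21 in Zfy2+Eif2s3y, 0.08 ± 0.11 in Zfy2, 0.24 ± 0.41 in Zfy1-hi, -0.09 ± 0.05 in Zfy1-lo and -0.01 ± 0.28 in Zfy2-nf (SD, n = 3). For H4 the SD exceeded the distance from XX in Zfy2+Eif2s3y, Zfy2, Zfy1-hi and Zfy2-nf, but not in Zfy1-lo.

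**Figure D3:**
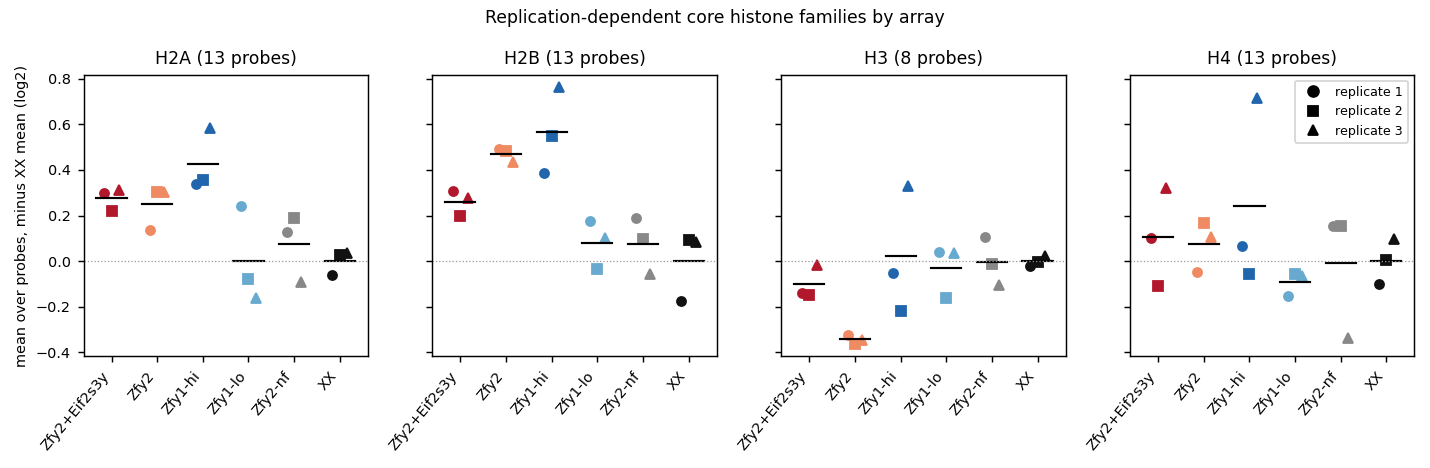
Mean log2 intensity of the H2A (13 probes), H2B (13), H3 (8) and H4 (13) probes detected on all arrays, minus the XX mean (vertical axis), on each of 18 arrays by genotype, with Zfy2+Eif2s3y at the left and XX at the right. Bars are genotype means. Zfy1-hi replicate 3 lies far above its replicates, most of all for H4.

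Zfy1-hi replicate 3 stood apart in core histone level. Over the 47 core probes on all arrays it lay 0.63 above the XX mean, while its replicates lay 0.21 and 0.20 above. For H4 probes the 3 arrays read 0.07, -0.06 and 0.72. This array was the highest of its genotype for 38 of 47 core probes, or 80.9%, including 13 of 13 H4 probes, against 34.3% of all probes. It was the highest of all 18 arrays for 29 of the 47, against 1052 of the 13829 probes detected on all arrays. In the other direction, Zfy2-nf replicate 3 was the lowest of its genotype for 33 of 47 core probes, or 70.2%, including 12 of 13 H4 probes, against 38.8% of all probes. Zfy2+Eif2s3y replicate 2 and Zfy1-hi replicate 2 were each the lowest for 28 of 47 core probes, including 12 and 11 of 13 H4 probes, against 32.5% and 30.8% of all probes.

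Core histone probes varied together between replicates of a genotype. Across the 18 arrays, deviations from the genotype mean had a median correlation of r = 0.365 over 1081 pairs of core probes, with 86.6% of pairs above 0. Over all probes detected on all arrays the median was 0.0017, with 50.2% above 0. Within H4 it was 0.732 over 78 pairs, all above 0, against 0.468 within H3, 0.406 within H2B, 0.370 within H2A and 0.485 between H3 and H4. Without Zfy1-hi replicate 3 the medians were 0.248 over all core probes, 0.613 for H4 and 0.217 for H3. The points share arrays, and near-identical copies may share signal, so these values are descriptive. For comparison, 13 pairs of probes to the same histone gene, all detected on all arrays, had a median r of 0.617 on the same deviations, from 0.256 for H2ac20 to 0.940 for H4c12.

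**Figure D4:**
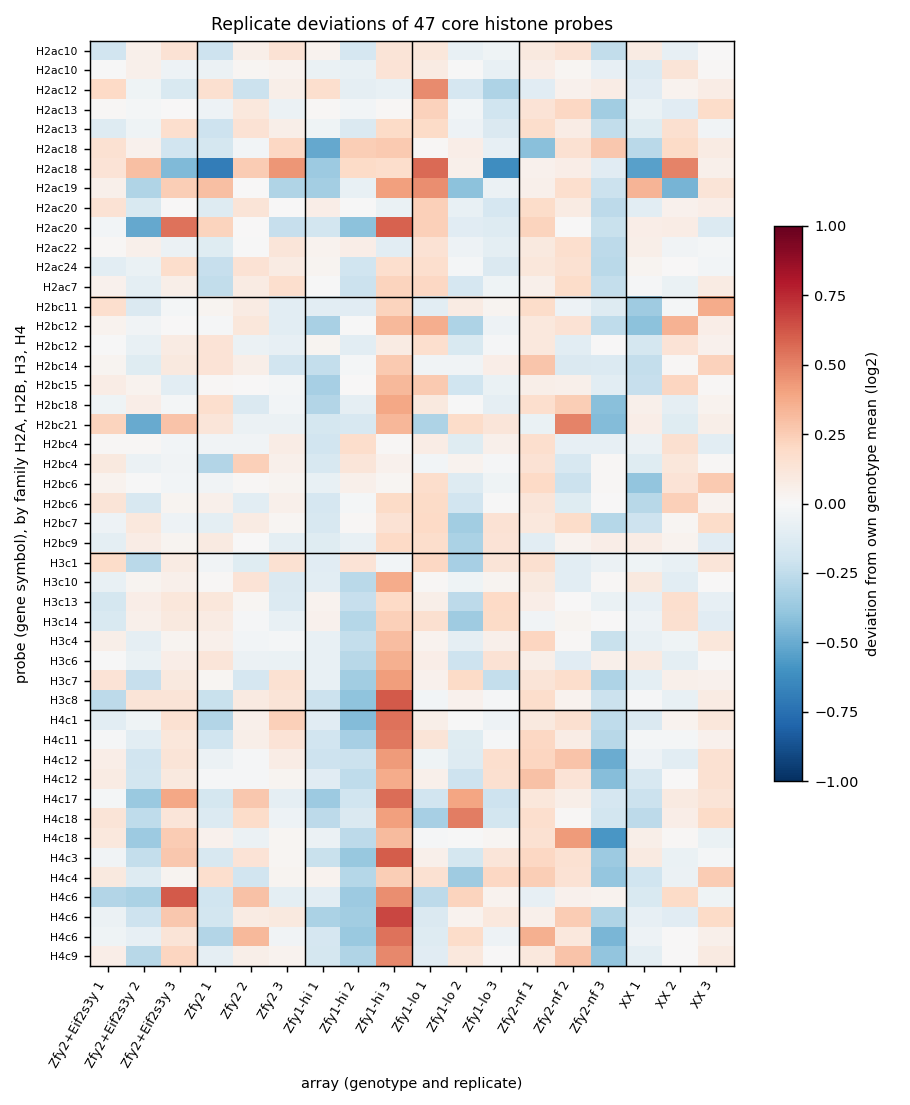
Heat map of 47 core histone probes (rows, by family) on 18 arrays (columns, by genotype), coloured by the deviation of log2 intensity from the probe's own genotype mean, on a scale from -1 to 1. Zfy1-hi replicate 3 is a column of high values in the H3 and H4 rows, and Zfy2-nf replicate 3 a column of low values in the H4 rows.

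Histone chaperones carry histones and place them on or take them off DNA. Of 32 listed genes, 28 were tested with 51 probes. In Zfy2+Eif2s3y against the mean of Zfy2-nf and XX, 3 genes were higher and 1 lower, each with 1 probe. That is 7.84% of the chaperone probes, against 9.14% of all kept probes. In Zfy2 against Zfy1-hi, 1 was higher and 1 lower, or 3.92% of the probes, against 5.66% of all. Neither share was above that of the array. None was called by limma in Zfy2-nf or Zfy1-lo against XX.

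Anp32e, a chaperone that removes H2A.Z from nucleosomes, read 7.36, 7.42 and 7.56 in Zfy2+Eif2s3y, 8.46, 8.46 and 8.43 in Zfy2-nf, and 8.40, 8.26 and 8.40 in XX. In batch 2 it read 7.06, 7.46 and 7.43 in Zfy2 and 8.63, 8.19 and 8.06 in Zfy1-hi. All 6 arrays with a functional Zfy2 transgene lay below all others. The differences were -0.96 (SE 0.13, adjusted p 2.48e-04) and -0.97 (adjusted p 0.00110), and against Zfy1-lo, at 8.42, 8.10 and 8.20, the Zfy2+Eif2s3y difference was -0.79 (adjusted p 0.00597), all in limma. The brighter probe carried these calls, while the other Anp32e probe differed by -0.08 in the first comparison. Within slide 2 the batch 1 differences were -0.97 (adjusted p 0.0550) and -0.75 (adjusted p 0.153), and leaving out any single array ended none of the 3 calls.

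Hira, of the complex that deposits H3.3, read 5.79, 6.01 and 6.03 in Zfy2+Eif2s3y, 5.51, 5.29 and 5.15 in Zfy2-nf, and 5.46, 5.22 and 5.60 in XX. It read 6.07, 6.69 and 5.99 in Zfy2 and 5.48, 5.61 and 5.48 in Zfy1-hi. The groups did not overlap, with differences of 0.57 (adjusted p 0.0290 in limma) and 0.73 (adjusted p 0.0252). A further Hira probe differed by 0.44 in the first comparison and was not called (adjusted p 0.228). The batch 2 call was lost without any 1 of the 3 Zfy1-hi arrays (adjusted p 0.0522 to 0.0807) or Zfy2 replicate 2 (0.51, adjusted p 0.117). Against Zfy1-lo, at 5.25, 4.97 and 5.43, the Zfy2+Eif2s3y difference was 0.72 (adjusted p 0.0264). That call held in 8 of 17 alternatives. It was lost without Zfy1-lo replicate 1 or 2 or Zfy2+Eif2s3y replicate 2 or 3 (adjusted p 0.0530 to 0.123), and within slide 2 the difference was 0.51 (adjusted p 0.303). On the series matrix the Zfy1-lo difference was 0.31 (adjusted p 0.0551) and the difference from the controls 0.25 (adjusted p 0.0591). In Zfy2 against Zfy1-hi the Hira difference was 0.83 with position as a covariate (adjusted p 0.0824), and on the arrays of these groups alone its adjusted p was 0.0915.

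Ubn2, a partner of Hira, and Daxx, a separate H3.3 chaperone, were called in Zfy2+Eif2s3y against the controls, at 0.48 (adjusted p 0.0274 in limma) and 0.51 (adjusted p 0.0388). In Zfy2 against Zfy1-hi their differences were 0.34 (adjusted p 0.226) and 0.50 (adjusted p 0.109), which were not called. The other 2 Ubn2 probes differed by 0.02 and 0.04 in the first comparison. These batch 1 calls rested on single arrays. Without Zfy2+Eif2s3y replicate 3, the differences were 0.53 for Hira (adjusted p 0.110), 0.40 for Ubn2 (adjusted p 0.136) and 0.40 for Daxx (adjusted p 0.183). Hira was also lost without Zfy2+Eif2s3y replicate 1 or 2 or XX replicate 2, Ubn2 without Zfy2+Eif2s3y replicate 1 or Zfy2-nf replicate 2, and Daxx without Zfy2+Eif2s3y replicate 1 or 2, XX replicate 2 or Zfy2-nf replicate 1 or 3. With slide as a block the adjusted p-values were 0.131, 0.110 and 0.0919.

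**Figure D5:**
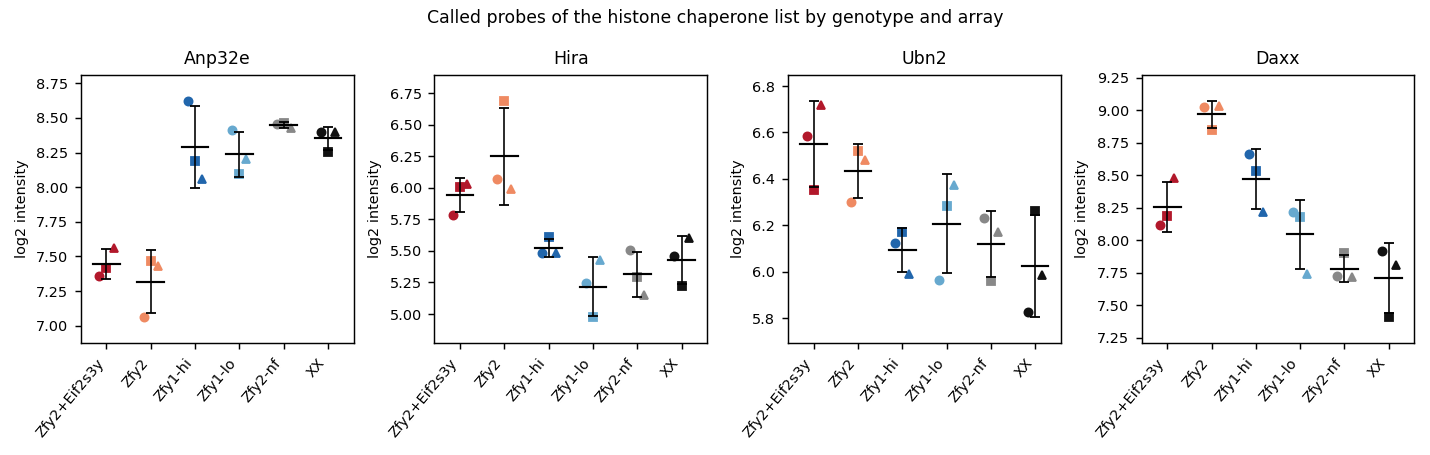
Log2 intensity of Anp32e, Hira, Ubn2 and Daxx (vertical axis) on each of the 18 arrays, by genotype from Zfy2+Eif2s3y at the left to XX at the right. Circles, squares and triangles are replicates 1, 2 and 3, the bar is the mean and the whisker the SD. Anp32e is at or below 7.56 on the 6 Zfy2+Eif2s3y and Zfy2 arrays and at or above 8.06 on the other 12.

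Of 21 listed genes that process replication-dependent histone mRNAs, 19 were tested with 27 probes. None was called by limma in Zfy2+Eif2s3y against the controls or in Zfy2 against Zfy1-hi. Against Zfy1-lo, 1 probe was called, or 3.70%, where 5.55% of all kept probes were. It was that of Cpsf2, a subunit of the cleavage complex, at -0.79 in Zfy2+Eif2s3y against Zfy1-lo (adjusted p 0.0359 in limma), a call lost without any 1 of the Zfy2+Eif2s3y arrays (0.0682 to 0.111) or without Zfy1-lo replicate 2 or 3 (0.130 and 0.115). Slbp averaged 9.96 in Zfy2+Eif2s3y, 9.02 in Zfy2, 8.83 in Zfy1-hi, 9.63 in Zfy1-lo, 9.77 in Zfy2-nf and 9.78 in XX. It was lowest in both batch 2 genotypes, and within a batch it was not called, at 0.18 for Zfy2+Eif2s3y against the controls (adjusted p 0.427) and 0.19 for Zfy2 against Zfy1-hi (adjusted p 0.570).

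Markers of replicating cells and of other cell types were measured beside the histones. Of 14 tested S-phase genes, Ccne2 and Mcm6 were called higher and Mcm7 lower in Zfy2+Eif2s3y against the controls. In Zfy2 against Zfy1-hi, Cdc6 was called higher and Mcm6 lower. Each was called with 1 probe, though the array holds 4 probes of Mcm6, 4 of Cdc6 and 2 of Mcm7. These were 3 and 2 of 31 probes, or 9.68% and 6.45%, close to the 9.14% and 5.66% of all kept probes. Ccne2 and 1 of 3 Mcm4 probes were called higher in Zfy2+Eif2s3y against Zfy1-lo, or 6.45% of the list, against 5.55% of all kept probes. The summed level of the S-phase list lay at 13.49 to 13.58 in Zfy2+Eif2s3y, 13.52 to 13.58 in Zfy2, 13.56 to 13.60 in Zfy1-hi, 13.51 to 13.64 in Zfy1-lo, 13.50 to 13.56 in Zfy2-nf and 13.44 to 13.46 in XX. Of 15 granulosa and cumulus genes, 9 were tested, and 1 of 3 Cyp11a1 probes (-1.63) and the Ptgs2 probe (-0.56) were lower in Zfy2+Eif2s3y than in the controls. These were 2 of 15 probes, or 13.3%, against 9.14% of all kept probes, while the median over all 15 was 0.33 and the mean 0.15. The other Cyp11a1 probes differed by 0.33 and 0.62 and were not called, and Star and Ptx3 were detected on 0 arrays. In Zfy2 against Zfy1-hi, 1 granulosa probe was called lower, or 6.67%, against 5.66% of all, and the median was 0.10. In Zfy2+Eif2s3y against Zfy1-lo, 2 were called lower, or 13.3%, against 5.55% of all, and the median was 0.23. The summed granulosa level was 9.38 to 10.48 in Zfy2+Eif2s3y, 9.28 to 9.70 in Zfy2, 9.969 to 9.998 in Zfy1-hi, 10.0009 to 10.26 in Zfy1-lo, 9.99 to 10.34 in Zfy2-nf and 9.92 to 10.11 in XX. Of the stroma list 5 genes and of the blood list 1 gene were tested, with none called by limma. The summed stroma level was 7.77 to 8.05 in Zfy2+Eif2s3y, 7.37 to 7.51 in Zfy2 and 7.14 to 7.25 in Zfy1-hi. It was 7.58 to 7.84 in Zfy1-lo, 7.56 to 7.91 in Zfy2-nf and 7.50 to 7.73 in XX. Zfy2+Eif2s3y thus lay above XX without overlap, but overlapped Zfy2-nf and Zfy1-lo. On any array, 7 of the listed stroma genes were detected in Zfy2+Eif2s3y, 3 in Zfy2, 1 in Zfy1-hi, 4 in Zfy1-lo, 4 in Zfy2-nf and 1 in XX. The part of these markers in the histone differences was not tested.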

How the data were processed

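Bead arrays measured RNA from 18 pools of oocytes, 3 per genotype. The labels' protocols name RNAqueous-Micro for extraction and the Ovation Pico WTA System 2 kit, a whole-transcriptome amplification, before biotin labelling. Per the file headers, the deposited non-normalized table gives an intensity (bead signal) and a detection p-value for each of 45281 probes on each array. The deposited series matrix gives a further intensity on a linear scale, with a median near 89.5 on every array, and its normalization is not given in the sources used here. GenomeStudio is named per the submitters' processing notes, without a version. The number of arrays limits the precision, and 0 columns belonged to no sample.

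Intensities were corrected for background from the detection p-values and quantile normalized over all arrays with neqc in limma 3.58.1 (R 4.3.3), with an offset of 16, and taken to log2. Probes with a detection p-value under 0.05 on at least 3 arrays were kept (23951). GEO's platform annotation gave 34885 probes 1 symbol, 18 several and 10378 none. A limma model with 6 genotype means and no block (12 residual degrees of freedom) was fitted to all kept probes and tested on simulated data. P-values were two-sided and adjusted by Benjamini-Hochberg over all kept probes of each contrast, and 5 contrasts within batches and the difference of a pair of them were read. Errors are SD over arrays or SE of differences, with 95% intervals.

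Named are all called histone probes, the 5 smallest p-values where fewer were called, and up to 6 called genes of each pathway list. Also named are the kept probes of H1f8, H1f2, H1f10, H2ac1, H2bc1, H2az1, H2az2, H3f3a, H3f3b, Macroh2a1 and Macroh2a2. H1f5, Slbp, H2ax, other markers and genes at the detection threshold were named after their values were seen. Members and lists were chosen with earlier results of these data known. The labels call the replicates biological, and p-values measure the spread between these pools. Alternatives were other background corrections and scalings, the series matrix, other filters, 1 probe per gene, slide or position in the fit, within-slide fits, a replicate block, the groups' own arrays and leaving out each array. Figures were drawn with matplotlib 3.10.9.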

Additional observations from a re-analysis of the deposited data

How the results depend on the processing

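The number of called histone probes moved with the processing, while no called value that was run through the alternatives changed sign. In Zfy2+Eif2s3y against the mean of Zfy2-nf and XX, 3 were called. There were 5 with quantile normalization without background correction, 5 on the series matrix and 5 among probes detected on all arrays. With array position as a covariate there were 6, and with slide as a fixed block 1. Within slide 2 each control has 1 array, so calls are not counted there. Leaving out 1 array gave 0 to 5. Calls over the whole array moved too. Of all 23951 kept probes, 2188 were called in the main fit, 2373 with position and 1111 with slide as a fixed block. Leaving out 1 array gave 1173 to 2504. In Zfy2 against Zfy1-hi, 4 were called, but 0 with position as a covariate, 0 when only the arrays of those groups were fitted, and 0 to 2 without 1 array. Over all kept probes, 1355 were called in the main fit, 445 with position, 947 on those arrays alone and 809 to 954 without 1 array. Against Zfy1-lo the count for Zfy2+Eif2s3y was 0, but 1 with slide as a fixed block (H2ac18), and 0 to 1 without 1 array. Over all kept probes, 1330 were called there in the main fit and 681 with slide as a fixed block. For the difference of the comparisons the histone count was 0, but 1 with 1 probe per gene (H2ac1), and 0 to 1 without 1 array. Over the array, 17 of 23951 probes were called in the main fit and 13 of 12184 with 1 probe per gene. For Zfy2-nf and Zfy1-lo against XX the histone count was 0 under every alternative run.

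Single probes were run through the alternatives only if the naming rule chose them, which leaves out H2ax, H1f5, Slbp and the markers. Of 16 called values of the chosen probes, 1 kept its call under every alternative, namely Anp32e in Zfy2 against Zfy1-hi. Of 164 uncalled ones, 7 passed under at least 1. H2ac1 was called in 18 of 21 alternatives in batch 1 and in 11 of 17 in batch 2, and H2ac10 in 7 of 17. Same-numbered arrays did not deviate together (2 of 45 pairs over r = 0.1), so replicate numbers did not pair the samples. With a replicate block, 3 histone probes were called in Zfy2+Eif2s3y against the controls and 3 in Zfy2 against Zfy1-hi. Of all 23951 kept probes, 2056 and 1253 were called there. Where calls moved, the cause was not tested. Probes near background, such as those of H2az2 and H1f10, carry little precision.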
